A study of Mus musculus with 6 samples.

Results

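Cell cycle genes of mouse skin and skin tumours were followed as a set of 46 genes, chosen by name, that fall into 2 phases of the cycle. The replication side held 14 genes that act at the G1/S boundary and in S phase. The mitotic side held 30 genes that act from late S phase to cytokinesis, and the transcription factors E2f1 and Foxm1 were kept apart from both. Of the 46 genes, 44 had a named probe on the array and 37 had a probe detected on at least 1 array, out of 12021 genes detected in this way. The 37 were all 14 replication genes, 21 of the 30 mitotic genes and both transcription factors. Mki67, the proliferation antigen Ki-67, and Ccnb1, the main mitotic cyclin, had no probe named in the platform annotation. The probes of Ccnb2, Ccna2, Bub1, Cenpe, Kif20a, Nek2 and Racgap1 were not detected on any array, so mitotic levels were described without them. Counts of promoter motifs include such genes where a promoter was available.

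A dividing cell copies its DNA in S phase and separates the copies in mitosis. Genes for the first task, such as the MCM helicase subunits and the enzymes that make deoxynucleotides, are switched on by E2F factors late in G1. Genes for the second task peak later, under complexes that hold B-MYB and FOXM1 and that bind a promoter element called the cell cycle genes homology region (CHR). In skin, cycling cells lie mainly in the basal epidermal layer and in the hair matrix.

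Transcript levels were measured in total RNA with 6 Illumina BeadChip arrays of 1 colour, each holding 1 sample, from C57BL6/129Sv mice whose age is given as 8 weeks. Of the 4 groups, WT tumour (Sting +/+; 2 arrays) was skin tumour after 10 µg of DMBA, a carcinogenic polycyclic hydrocarbon, in 100 µl of acetone weekly for 18 to 20 weeks. SKO DMBA skin (Sting -/-; 2 arrays) was dorsal skin of mice without STING, an adaptor of cytosolic DNA sensing, after the same treatment. WT acetone skin and SKO acetone skin (1 array each) had received 100 µl of acetone, for a time the labels do not give. All groups thus shared acetone, and genotype and kind of tissue changed together in the DMBA groups, so tumour and genotype cannot be told apart there. The labels number the samples without tying each to its own mouse, so a p-value here reflects spread among samples that may be technical.

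Between 35.5% and 43.3% of 45281 probes were detected per array, fewest on tumour 1. The tumours resembled each other less (r = 0.923 over genes, not independent replicates) than the SKO DMBA arrays did (r = 0.981), and tumour 2 correlated better with SKO DMBA skin 2 (r = 0.939) than with tumour 1. Sting1, the targeted gene, was at 5.40 and 6.79 on the log2 scale in the tumours, 5.55 and 5.33 in SKO DMBA skin, 6.31 in WT acetone skin and 4.94 in SKO acetone skin. The place of its probe relative to the deletion is unknown here, and it therefore does not check the labels. All 9 basal keratinocyte markers were detected on all 6 arrays, with summed intensities from 74835.9 to 93975.5. Single markers in that sum ran apart: Krt15 was at 8.11 and 11.41 in the tumours and 14.10 in WT acetone skin, and Itga6 at 11.11 and 10.36 in the tumours and 9.24 in WT acetone skin.

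WT tumours were set against WT acetone skin to ask which side of the cycle differed in a tumour. All 14 replication genes and all 21 mitotic genes had higher mean levels in the tumours, with a median difference of 0.78 log2 units for replication, 0.90 for mitosis and -0.01 for all genes. E2f1 was the 1 gene of 37 with a lower mean. Ccne1, included in these and later counts, was detected in tumour 1 alone. Of the 32 genes detected on all 6 arrays, 31 had a higher mean. With undetected probes kept, 40 of 44 had a higher mean, and Ccnb2, Kif20a, Nek2 and E2f1 had a lower one. Both tumours lay above all 4 other arrays for 29 of the 37 genes, 11 of 14 replication and 17 of 21 mitotic genes and Foxm1, where 26.1% of all genes had this order. In bulk tissue, more cycling cells and more RNA per cycling cell cannot be told apart.

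With limma's moderated test and Benjamini-Hochberg adjustment over 12021 genes, 0 of 37 cell cycle genes and 0 genes in all (0%) passed an adjusted p of 0.05 in WT tumour minus WT acetone skin. At an unadjusted p under 0.05, 15 of the 37 were higher (5 replication and 10 mitotic genes) against 8.67% of all genes, and 0 were lower against 12.5%. The 15 became 8 when tumour 1 was left out (8.9% of all genes) and 9 when either SKO DMBA array was (4.46%), since all groups share the error estimate. They became 6 with equal array medians (5.21%) and 4 without normalization between arrays (4.28%). Without tumour 2, 10 of the 37 genes and 23.5% of all genes passed the adjusted threshold, with a spread taken from the SKO DMBA pair alone, and without tumour 1, 0 of the 37 and 4.61% of all genes did. Over 2-fold higher in the tumours were 13 of the 37, 4 replication and 9 mitotic genes, against 8.43% of all genes. Ccne1, detected in tumour 1 alone, is among the 4. The heat map of the 37 genes shows each array.

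**Figure D1:**
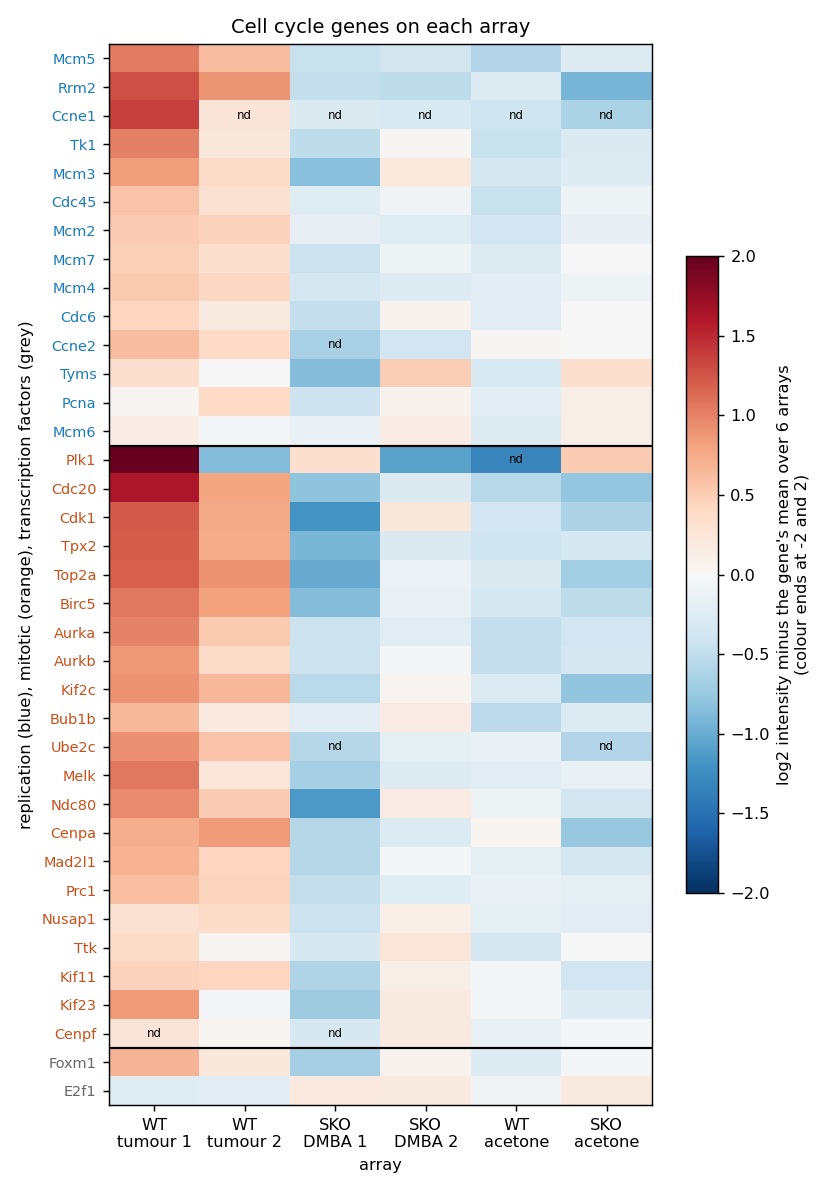
Log2 intensity of each tested cell cycle gene (rows) on each of the 6 arrays (columns), minus the gene's mean over the 6 arrays; red is above and blue below that mean, and nd marks a probe that was not detected on that array. Tumour 1 and tumour 2 hold the highest values for 29 of 37 genes (20 without normalization between arrays), while E2f1 runs the other way and Plk1 is uneven within groups.

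The scaling between arrays moved these values. Quantile normalization held the median of all genes near 0, whereas with equal array medians it was -0.27 in WT tumour minus WT acetone skin, and without normalization between arrays it was -0.39. The count of cell cycle genes with a positive difference was then 35 and 29 of 37. The members below 0 with equal medians were Cenpf and E2f1, and without normalization Ccne2, Cdc6, Cenpf, Kif11, Mcm6, Pcna, E2f1 and Ttk. Measured from the median of all genes, 36 of 37 lay above it under quantile normalization and with equal medians. The count without normalization is the same by construction, since equal medians shift all genes of an array alike. Both tumours lay above the other 4 arrays for 23 genes with equal medians (16.7% of all genes) and for 20 without normalization (13.7%).

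Promoters of the genes with the largest tumour differences are shown because E2F and CHR elements are the textbook marks that separate the sides. They were the 3 replication and the 3 mitotic genes with the largest absolute measured difference from WT acetone skin. That of Ccne1, 1.22, was measured on a probe not detected in WT acetone skin or tumour 2, so its rank above the 1.06 of Tk1 is uncertain. Each promoter runs 5′ to 3′ in the direction of the gene, from 250 bases before the start to 30 after it, from RefSeq annotation of GRCm38.p6. Capitals mark matches on either strand to an E2F motif (TTTCCCGC or TTTCGCGC or TTTGCCGC or TTTGGCGC), a CHR motif (TTTGAA or TTCGAA) or CCAAT, the NF-Y motif. Mcm5 lies at chr8:75109259-75109538 on the plus strand, Rrm2 at chr12:24708004-24708283 (plus), Ccne1 at chr7:38107461-38107740 (minus), Plk1 at chr7:122159185-122159464 (plus), Cdc20 at chr4:118437314-118437593 (minus) and Cdk1 at chr10:69352883-69353162 (minus).
Mcm5: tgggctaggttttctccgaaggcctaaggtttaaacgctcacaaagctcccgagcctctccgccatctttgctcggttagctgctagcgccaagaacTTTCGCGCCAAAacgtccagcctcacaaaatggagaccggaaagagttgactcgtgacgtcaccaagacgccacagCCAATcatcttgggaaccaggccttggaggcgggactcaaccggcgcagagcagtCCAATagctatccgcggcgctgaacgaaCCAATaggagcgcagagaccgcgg
Rrm2: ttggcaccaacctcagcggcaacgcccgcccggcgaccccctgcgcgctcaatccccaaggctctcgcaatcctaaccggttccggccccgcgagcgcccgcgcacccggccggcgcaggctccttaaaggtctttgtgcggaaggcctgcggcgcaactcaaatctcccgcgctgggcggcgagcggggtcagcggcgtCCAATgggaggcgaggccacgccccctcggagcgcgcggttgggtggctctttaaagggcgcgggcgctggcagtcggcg
Ccne1: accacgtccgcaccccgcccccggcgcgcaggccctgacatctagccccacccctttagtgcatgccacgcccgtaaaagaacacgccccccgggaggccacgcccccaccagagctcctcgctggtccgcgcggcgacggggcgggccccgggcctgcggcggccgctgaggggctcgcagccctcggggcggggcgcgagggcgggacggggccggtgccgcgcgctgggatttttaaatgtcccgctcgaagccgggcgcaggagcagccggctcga
Plk1: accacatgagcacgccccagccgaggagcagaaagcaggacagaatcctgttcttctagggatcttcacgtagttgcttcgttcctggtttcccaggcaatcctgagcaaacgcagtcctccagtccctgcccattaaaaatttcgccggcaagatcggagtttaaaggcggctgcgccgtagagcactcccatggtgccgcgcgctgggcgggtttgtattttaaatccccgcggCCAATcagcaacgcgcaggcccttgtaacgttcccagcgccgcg
Cdc20: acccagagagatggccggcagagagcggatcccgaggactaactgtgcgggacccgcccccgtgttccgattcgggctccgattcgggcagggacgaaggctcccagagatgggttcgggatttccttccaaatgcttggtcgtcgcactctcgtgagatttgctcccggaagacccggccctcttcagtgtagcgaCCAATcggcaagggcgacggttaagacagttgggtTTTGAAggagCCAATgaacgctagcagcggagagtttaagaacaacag
Cdk1: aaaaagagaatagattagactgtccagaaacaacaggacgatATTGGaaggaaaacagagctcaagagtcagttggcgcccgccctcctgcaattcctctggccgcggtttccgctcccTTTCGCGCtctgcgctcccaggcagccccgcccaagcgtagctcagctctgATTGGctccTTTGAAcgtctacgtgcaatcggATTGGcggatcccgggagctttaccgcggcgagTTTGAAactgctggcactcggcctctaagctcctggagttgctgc
In the printed bases, Mcm5 held 2 overlapping E2F matches, 1 on each strand, and 3 CCAAT matches. Rrm2 held 1 CCAAT match, and Ccne1 held none of the 3 motifs in these letters. Cdc20 held 1 CHR and 2 CCAAT matches. Cdk1 held 1 E2F, 2 CHR and 3 CCAAT matches, and Plk1 held 1 CCAAT match with a CHR match at base 31, just past the printed end.

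Over windows of 300 bases, from 250 before to 50 after the start, 39 of the 46 genes had an entry. An E2F match was found in 5 of 12 replication windows (41.7%), 1 of 26 mitotic windows (3.85%) and 2.26% of all 32851 windows. A CHR match was found in 3 of 12 replication windows (25%), 19 of 26 mitotic windows (73.1%) and 19.2% of all windows. CCAAT was matched in 8 replication windows (66.7%), 20 mitotic windows (76.9%) and 37.4% of all windows. The 26 mitotic windows include genes without a detected probe. Of the 19 windows of tested mitotic genes, 1 had an E2F match (5.26%), 15 a CHR match (78.9%) and 13 a CCAAT match (68.4%). The CCAAT share of tested mitotic genes was thus close to that of replication genes. A match describes letters and not binding, and the lists were not tested for enrichment. The bar chart of motif shares gives these values.

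**Figure D2:**
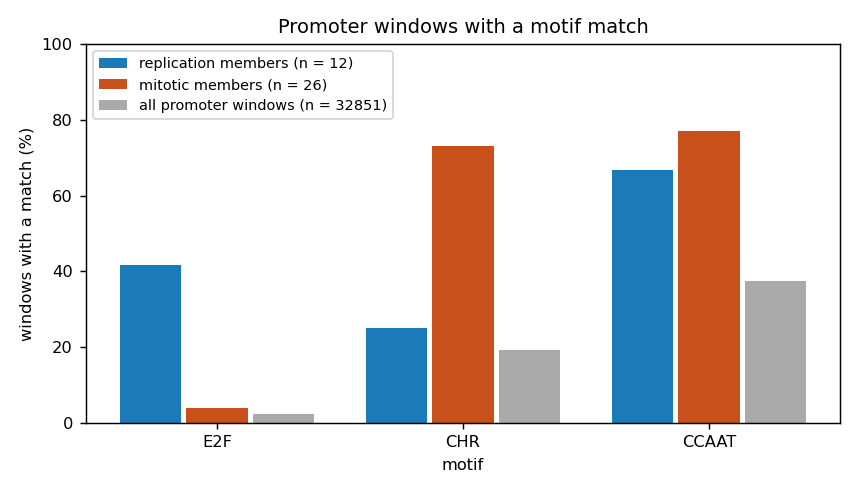
Share of promoter windows of 300 bases with at least 1 match (y axis, percent) for each motif (x axis), in replication genes, mitotic genes (with or without a detected probe) and all windows. E2F matches were in 41.7% of replication and 3.85% of mitotic windows, and CHR matches in 25% of replication and 73.1% of mitotic windows.

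Among the genes that start replication, the 6 subunits of the MCM2-7 helicase, which unwinds DNA at the fork, all had higher means in the tumours than in WT acetone skin, between 0.33 for Mcm6 and 1.41 for Mcm5 (-0.11 for Mcm6 without normalization between arrays). Mcm5 had log2 intensities of 11.56 and 11.13 in the tumours, 10.07 and 10.15 in SKO DMBA skin, 9.93 in WT acetone skin and 10.25 in SKO acetone skin. Its tumour values stood clear of the other 4 arrays, which lay within 0.33 of each other. The tumours exceeded WT acetone skin by 1.41 (SE 0.30, 2 arrays and 1, limma adjusted p = 0.146), the smallest adjusted p of the 37 genes in that comparison. Mcm3 had 7.09 and 6.63 in the tumours, 5.40 and 6.46 in SKO DMBA skin, 5.90 in WT acetone skin and 5.99 in SKO acetone skin. SKO DMBA skin 2 came close to tumour 2 for Mcm3, and the difference from WT acetone skin was 0.96 (SE 0.53, limma adjusted p = 0.351). Mcm2, Mcm7 and Mcm4 followed with 0.87 (SE 0.25), 0.69 (SE 0.28) and 0.67 (SE 0.25), each with both tumours above the other arrays after quantile normalization. Mcm6 did not share this order: tumour 1, at 9.17, was level with SKO DMBA skin 2, at 9.17, and tumour 2 lay below that array and SKO acetone skin, at 9.14. Another Mcm6 probe detected on all 6 arrays differed more from WT acetone skin, by 0.70. On it tumour 1 was highest, at 8.59, and tumour 2, at 8.09, lay below SKO acetone skin, at 8.19.

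Other genes load or activate the helicase or build the fork. Cdc45, which joins the MCM ring to form the active helicase, had 7.19 and 6.93 in the tumours, 6.38 and 6.55 in SKO DMBA skin, 6.18 in WT acetone skin and 6.53 in SKO acetone skin. The tumours were highest after quantile normalization, and the difference from WT acetone skin was 0.88 (SE 0.28, limma adjusted p = 0.198). In deposited intensity tumour 1, at 151.7, lay below SKO DMBA skin 2, at 157.7, and SKO acetone skin, at 156.3. Cdc6, which loads MCM rings onto origins, had 7.39 and 7.15 in the tumours, 6.49 and 7.04 in SKO DMBA skin, 6.74 in WT acetone skin and 6.98 in SKO acetone skin. Its tumour values were again highest after quantile normalization, with tumour 2 just above SKO DMBA skin 2. The difference from WT acetone skin was 0.53 (SE 0.35), and -0.02 without normalization between arrays. In deposited intensity SKO DMBA skin 2, at 197.9, was above both tumours, at 166.5 and 184.6. Pcna, the sliding clamp of DNA polymerases, differed by 0.43 (SE 0.35) and tumour 1, at 8.04, was below SKO acetone skin, at 8.11.

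Enzymes of deoxynucleotide supply were uneven. Rrm2, the regulated subunit of ribonucleotide reductase, had 8.54 and 8.14 in the tumours, 6.79 and 6.74 in SKO DMBA skin, 7.00 in WT acetone skin and 6.32 in SKO acetone skin. The tumours stood over 1 log2 unit above every other array. Against SKO DMBA skin the tumours differed by 1.58 (SE 0.24, limma adjusted p = 0.0763), the smallest adjusted p of the 37 genes in that comparison, and against WT acetone skin by 1.34 (SE 0.30, limma adjusted p = 0.148). Tk1, which salvages thymidine, had 9.91 and 9.13 in the tumours, 8.40 and 8.93 in SKO DMBA skin, 8.46 in WT acetone skin and 8.62 in SKO acetone skin. Both tumours were highest, tumour 1 by the wider margin, and the difference from WT acetone skin was 1.06 (SE 0.46). Tyms, thymidylate synthase, did not separate the groups: its highest value was 9.84 in SKO DMBA skin 2, and the difference from WT acetone skin was 0.48 (SE 0.62).

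The E cyclins, which drive entry into S phase with CDK2, were dim. Ccne1 was detected on 1 array alone, tumour 1, at 6.45, with 5.35 in tumour 2, 4.79 and 4.79 in SKO DMBA skin, 4.68 in WT acetone skin and 4.46 in SKO acetone skin. Limits were computed against skin arrays set to their lowest detected signal or their own value, whichever was higher. Tumour 1 was at least 2.54-fold higher than WT acetone skin and at least 2.52-fold higher than SKO DMBA skin. Tumour 2, not being detected, gave no limit, so none holds for both tumours. Their measured mean differed by 1.22 (SE 0.51, limma adjusted p = 0.267) from WT acetone skin and by 1.11 (SE 0.42, limma adjusted p = 0.172) from SKO DMBA skin. Ccne2 had 6.24 and 6.02 in the tumours, 4.97 and 5.23 in SKO DMBA skin, 5.64 in WT acetone skin and 5.61 in SKO acetone skin. After quantile normalization the tumours were highest and SKO DMBA skin lowest, with 1 of its 2 arrays not detected. The tumour difference from WT acetone skin was 0.48 (SE 0.28), and -0.03 without normalization between arrays. In deposited intensity tumour 1, at 104.4, lay below both acetone arrays, at 110.1 and 110.5.

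Of the kinases that start mitosis, Cdk1, the partner of cyclin B, had 10.12 and 9.65 in the tumours, 7.69 and 9.12 in SKO DMBA skin, 8.52 in WT acetone skin and 8.27 in SKO acetone skin. The tumours were highest, while the SKO DMBA arrays lay 1.42 apart, on both sides of the acetone arrays. The difference from WT acetone skin was 1.37 (SE 0.66, limma adjusted p = 0.306). Plk1, the polo kinase of mitotic entry, had 8.68 and 5.40 in the tumours, 6.59 and 5.18 in SKO DMBA skin, 4.94 in WT acetone skin and 6.76 in SKO acetone skin. Its values did not sort by group, and its 2.10 against WT acetone skin came with an SE of 1.49. As the probe was not detected in WT acetone skin, the tumours were at least 3.83-fold higher than that array (limma adjusted p = 0.45), with limits of 11.9-fold for tumour 1 alone and 1.23-fold for tumour 2 alone. Without tumour 1, WT tumour minus SKO DMBA skin for Plk1 was -0.49, against 1.15 with both tumours. Aurka, the centrosomal Aurora kinase, differed from WT acetone skin by 1.24 (SE 0.32, limma adjusted p = 0.169), and Melk, a kinase of cycling cells, by 0.87 (SE 0.45).

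The genes of chromosome structure and the kinetochore included Top2a, the topoisomerase that untangles sister DNA. Top2a had 9.32 and 9.02 in the tumours, 7.11 and 8.01 in SKO DMBA skin, 7.83 in WT acetone skin and 7.44 in SKO acetone skin. On the probe used, the tumours lay over 1 log2 unit above the rest, for a difference from WT acetone skin of 1.34 (SE 0.46, limma adjusted p = 0.214). A dimmer Top2a probe, also detected on all 6 arrays, had 6.78 and 7.58 in the tumours. Its highest other array was SKO DMBA skin 2, at 6.56, and its difference from WT acetone skin was 1.12. Birc5, or survivin, a subunit of the chromosomal passenger complex, had 9.97 and 9.70 in the tumours, 8.04 and 8.76 in SKO DMBA skin, 8.56 in WT acetone skin and 8.41 in SKO acetone skin. The tumours were again the highest arrays and SKO DMBA skin 1 the lowest, with a difference of 1.28 (SE 0.40) from WT acetone skin. Aurkb, the kinase of that complex, differed by 1.09 (SE 0.36), Ndc80, an outer kinetochore protein, by 0.82 (SE 0.62) and Cenpa, the centromeric histone H3, by 0.75 (SE 0.28). Cenpf, another kinetochore protein, differed least on the mitotic side, by 0.28 (SE 0.33), and was not detected in tumour 1; with equal array medians its difference was -0.02.

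Spindle and cytokinesis genes were led by Tpx2, which activates Aurora A on the spindle. Tpx2 had 8.35 and 7.88 in the tumours, 6.23 and 6.86 in SKO DMBA skin, 6.75 in WT acetone skin and 6.79 in SKO acetone skin. Both tumours were over 1 log2 unit above the rest, with a difference of 1.37 (SE 0.40, limma adjusted p = 0.188) from WT acetone skin. Kif2c, a kinesin that shortens microtubules, had 8.33 and 8.10 in the tumours, 6.89 and 7.49 in SKO DMBA skin, 7.17 in WT acetone skin and 6.65 in SKO acetone skin. The tumours were highest and SKO acetone skin lowest, and the difference from WT acetone skin was 1.05 (SE 0.36). Prc1, which bundles midzone microtubules, Nusap1, a spindle microtubule binder, and Kif11, the motor that separates spindle poles, differed by 0.66 (SE 0.27), 0.53 (SE 0.34) and 0.48 (SE 0.38). Kif23, a motor of cytokinesis, differed by 0.44 (SE 0.57). It was the 1 gene of 13 with several detected probes whose probes disagreed in sign in this comparison, and another of its probes gave -0.24.

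In the spindle checkpoint and the anaphase-promoting complex, Cdc20, the activator that the checkpoint holds back, had 11.16 and 10.33 in the tumours, 8.74 and 9.25 in SKO DMBA skin, 8.99 in WT acetone skin and 8.76 in SKO acetone skin. On the probe used, the lower tumour stood over 1 log2 unit above the highest of the rest. On dimmer Cdc20 probes, tumour 2 was at 9.21 against 8.16 in SKO DMBA skin 2, and at 8.81 against 8.07 in that array. On another it was at 6.47 against 6.02 in SKO acetone skin. The tumour difference was 1.76 (SE 0.47, limma adjusted p = 0.171) from WT acetone skin and 1.75 (SE 0.38, limma adjusted p = 0.0971) from SKO DMBA skin. Bub1b, the checkpoint protein BubR1, had 9.53 and 9.08 in the tumours, 8.68 and 9.04 in SKO DMBA skin, 8.35 in WT acetone skin and 8.61 in SKO acetone skin. Tumour 2 and SKO DMBA skin 2 were nearly level, and the difference from WT acetone skin was 0.95 (SE 0.34). Ube2c, the ubiquitin-conjugating enzyme of the complex, differed by 0.90 (SE 0.32), and the checkpoint genes Mad2l1 and Ttk by 0.75 (SE 0.35) and 0.53 (SE 0.37).

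The 2 transcription factors diverged. Foxm1, which activates mitotic genes, had 7.75 and 7.30 in the tumours, 6.42 and 7.14 in SKO DMBA skin, 6.82 in WT acetone skin and 7.04 in SKO acetone skin. After quantile normalization both tumours were the highest arrays for Foxm1 and SKO DMBA skin 1 the lowest, with a difference from WT acetone skin of 0.70 (SE 0.43). In deposited intensity SKO DMBA skin 2, at 208.1, was above both tumours, at 201.6 and 199.9. E2f1, which activates replication genes, had 8.12 and 8.13 in the tumours, 8.55 and 8.54 in SKO DMBA skin, 8.28 in WT acetone skin and 8.54 in SKO acetone skin. Both tumours were the lowest arrays for E2f1, and the tumour differences were -0.16 (SE 0.24) from WT acetone skin and -0.42 (SE 0.20, limma adjusted p = 0.234) from SKO DMBA skin. Neither factor passed the test, and the plot of differences with their errors sets all 37 genes side by side.

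**Figure D3:**
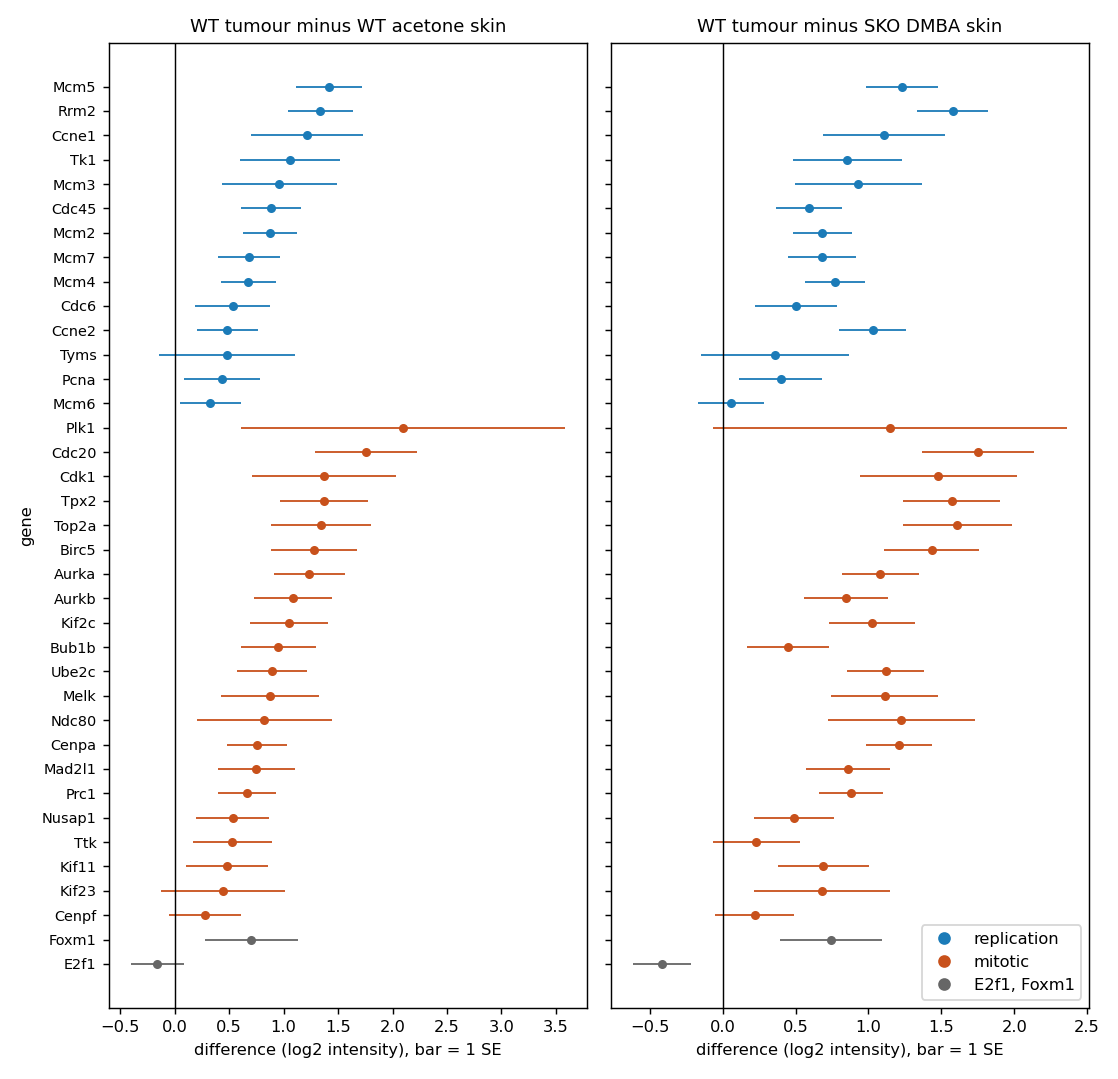
Difference in log2 intensity (x axis) of each tested cell cycle gene (y axis), WT tumour minus WT acetone skin on the left and WT tumour minus SKO DMBA skin on the right, after quantile normalization; points are limma estimates and bars 1 SE. In both panels 36 of 37 points lie right of 0, E2f1 being the exception, and without normalization between arrays 29 and 32 did.

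WT tumours were set against SKO DMBA skin, a comparison under the carcinogen in which genotype and kind of tissue cannot be told apart. The median difference was 0.73 for replication genes, 1.08 for mitotic genes and -0.02 for all genes, and 36 of 37 genes were positive. No gene passed limma's adjusted p of 0.05 (0 of 12021, 0%). At an unadjusted p under 0.05, 19 of 37 were higher, 6 replication and 13 mitotic genes, against 12.4% of all genes, and 0 were lower against 17%. Without normalization between arrays the 19 became 11 (6.31% of all genes). Over 2-fold higher were 16 of 37, 4 replication and 12 mitotic genes, against 8.45%. The 4 include Ccne1, detected in tumour 1 alone. Without SKO DMBA skin 1, 6 of 37 and 4.13% of all genes were higher at the unadjusted threshold, and the differences of Cenpf, Mcm6, Tyms and Ttk turned negative. Without tumour 2, 16 of 37 genes and 31% of all genes passed the adjusted threshold. Without tumour 1, 1 of 37 and 7.64% of all genes did, the member being Rrm2, named after its values were seen.

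**Figure D4:**
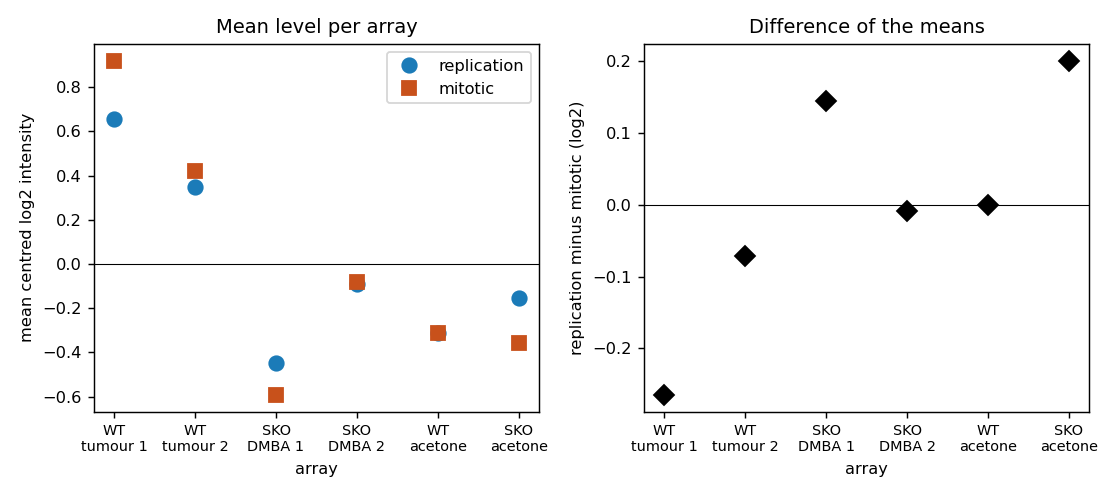
Left, mean over the 14 replication genes and the 21 mitotic genes of log2 intensity centred on each gene's mean over the 6 arrays (y axis), for each array (x axis). Right, the replication mean minus the mitotic mean. Tumour 1 is highest on both sides and has the lowest replication minus mitotic value, -0.26, and SKO acetone skin the highest, 0.20.

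The sides were then compared within each array, using the mean of centred log2 intensities. Mitotic genes averaged 0.92 and 0.42 in the tumours, -0.59 and -0.08 in SKO DMBA skin, -0.31 in WT acetone skin and -0.36 in SKO acetone skin. Replication genes averaged 0.65 and 0.35 in the tumours, -0.45 and -0.09 in SKO DMBA skin, -0.31 in WT acetone skin and -0.16 in SKO acetone skin. Both sides put the arrays in nearly the same order, with the mitotic side spread wider. The replication minus mitotic level was -0.26 and -0.07 in the tumours, 0.14 and -0.01 in SKO DMBA skin, -8.05e-05 in WT acetone skin and 0.20 in SKO acetone skin. The tumours were the lowest arrays on this measure, but tumour 2 lay closer to SKO DMBA skin 2 than the SKO DMBA arrays lay to each other. As group differences it was -0.17 in WT tumour minus WT acetone skin and -0.24 in WT tumour minus SKO DMBA skin, beside a pooled replicate SD of 0.12. When probes that were never detected were kept, these became 0.07 and -0.01. No test was made of this measure, and its sign in WT tumour minus WT acetone skin depended on the probes kept.

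In SKO mice, DMBA skin and acetone skin were set against each other for the same genes without a tumour. The median of SKO DMBA skin minus SKO acetone skin was -0.13 for replication genes, 0.05 for mitotic genes and 0.00023 for all genes. No gene passed limma's adjusted p of 0.05 (0%), and 0 of 37 were higher at an unadjusted p under 0.05 against 3.96% of all genes. Both SKO DMBA arrays lay above SKO acetone skin for 6 of 37 genes (38.6% of all genes) and below it for 8 of 37 (38.4%). For the others the SKO DMBA arrays fell on either side of it. Without SKO DMBA skin 1 the replication and mitotic medians were 0.02 and 0.36, and without SKO DMBA skin 2 they were -0.25 and -0.23. All 6 MCM genes had a lower mean in SKO DMBA skin, with differences between -0.26 for Mcm7 and -0.03 for Mcm2. Mcm2 was positive with equal array medians and without SKO DMBA skin 2, Mcm2 and Mcm3 without normalization, and Mcm3 and Mcm6 without SKO DMBA skin 1. Tyms had a difference of -0.52 (SE 0.62), Ccne2 of -0.50 (SE 0.28, limma adjusted p = 0.752) and Pcna of -0.29 (SE 0.35), while Kif2c had 0.54 (SE 0.36) and Rrm2 0.44 (SE 0.30). Both tumours lay above WT acetone skin while both SKO DMBA arrays lay below SKO acetone skin for 8 of 37 genes, against 9.96% of all genes.

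The genotypes at baseline had 1 array each, so there was no test. SKO acetone skin was above WT acetone skin for 11 of 14 replication genes and 8 of 21 mitotic genes, 21 of 37 in all with both transcription factors, against 52% of all genes. The median difference was 0.23 for replication genes, -0.15 for mitotic genes and 0.02 for all genes. The 6 MCM genes were all higher in SKO acetone skin, by 0.10 for Mcm3 to 0.38 for Mcm6, and Tyms by 0.64. Rrm2 had a difference of -0.68 and Cenpa of -0.79, and that of Plk1, not detected in WT acetone skin, was the highest at 1.83.

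The difference of the DMBA responses, WT minus SKO, had a median of 0.93 for replication and 0.83 for mitotic genes. Its adjusted p was under 0.05 for 0 of 12021 genes (0%) by limma, and 2 of 37 genes were positive at an unadjusted p under 0.05, against 3.46% of all genes. These were Mcm5, at 1.56 (SE 0.43, limma adjusted p = 0.539), and Tpx2, at 1.61 (SE 0.57, limma adjusted p = 0.617). Each response rests on a single acetone array, whose spread was not measured. The WT response also sets tumour against skin, so genotype and kind of tissue cannot be told apart here either. For DMBA minus acetone over both genotypes the medians were 0.32 for replication and 0.55 for mitotic genes. Here again 0 genes (0%) passed limma's adjusted p of 0.05, and 6 of 37 were higher at an unadjusted p under 0.05 against 8.31% of all genes, with the smallest adjusted p for Rrm2, at 0.89 (SE 0.21, limma adjusted p = 0.156).

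Arrays of 1 group were not alike for these genes. Tumour 1 was above tumour 2 for 33 of 37 genes, against 50.4% of all genes, with a median of 0.25 for replication and 0.34 for mitotic genes. SKO DMBA skin 2 was above SKO DMBA skin 1 for 32 of 37, against 46.5%, with medians of 0.27 and 0.56. The widest gaps were in Plk1, where tumour 1 was 3.28 above tumour 2, and in Cdk1, Tyms and Ndc80, where SKO DMBA skin 2 was above SKO DMBA skin 1 by 1.42, 1.36 and 1.31. For Plk1 the SKO DMBA arrays ran the other way, SKO DMBA skin 2 minus SKO DMBA skin 1 being -1.41. After quantile normalization, both tumours were above WT acetone skin for all 35 replication and mitotic genes, an order found in 39.4% of all genes, with mitotic medians of 1.17 in tumour 1 and 0.72 in tumour 2.

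Other cell cycle genes, from lists that hold none of the 46, were also higher in the tumours for the most part. These lists were chosen with earlier results of these data known, so they are not a separate check. Of all genes, 49.3% were higher in WT tumours than in WT acetone skin. Of 31 tested replication genes, 29 were higher in WT tumours than in WT acetone skin (median 0.54) and 8 at an unadjusted p under 0.05. Of 46 tested mitotic genes, 45 were higher (median 0.87) and 20 at an unadjusted p under 0.05. Of 20 G1 control genes, 12 were higher and 8 lower (median 0.24), with 3 and 2 at that threshold, against 8.67% and 12.5% of all genes. Mcm10, a replication initiation factor, differed by 1.24 (limma adjusted p = 0.145), Cdca8, borealin of the passenger complex, by 1.24 (limma adjusted p = 0.15) and Mybl2, or B-MYB, by 0.83 (limma adjusted p = 0.241). Mybl2 also had 1.23 in SKO DMBA skin minus SKO acetone skin (limma adjusted p = 0.539), where the 21 mitotic genes had a median of 0.05.

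Cell type markers varied with the groups. The 8 wound keratinocyte markers, such as Krt6a and Krt16, summed to 260359 and 265910 in the tumours, 57286.9 and 74066.3 in SKO DMBA skin, 53408.6 in WT acetone skin and 34109.8 in SKO acetone skin, with 7 or 8 of 8 detected. Krt17, in the same sum, was at 15.39 and 15.51 in the tumours and 15.42 in WT acetone skin. It was at 15.53 and 15.49 in SKO DMBA skin and 14.99 in SKO acetone skin, so its highest value was not in a tumour. The 11 tested hair matrix and shaft markers summed to 1504 and 24783.7 in the tumours, 80032.9 and 111595 in SKO DMBA skin, 76950.4 in WT acetone skin and 2966 in SKO acetone skin. Of these, 3 were detected in tumour 1, 10 in tumour 2, 7 in SKO acetone skin and 11 on each other array. Of the 11, only Foxn1 had a higher mean in the tumours than in WT acetone skin. It was at 6.29 and 5.53 in the tumours, 5.62 in WT acetone skin and 4.72 in SKO acetone skin. Dlx3 was lowest in SKO acetone skin, at 8.65, against 10.16 in tumour 1. The 9 skeletal muscle markers summed to 381.2 and 23361.8 in the tumours, with 2 and 9 detected, and between 95365.5 and 193937 on the other 4 arrays. The part of these markers in the cell cycle differences was not tested. Summed T cell markers, 3 of 7 tested, ran from 181.4 in tumour 1 to 1778 in SKO DMBA skin 1. Tumour 2, at 848.1, lay above WT acetone skin, at 484.5. Macrophage markers, 5 of 6 tested, ran from 1134 to 9362 on the same arrays, with 3044 in tumour 2 and 3634 in WT acetone skin. Of these macrophage markers, only Cd14 had a higher mean in the tumours than in WT acetone skin, 8.56 against 7.94.

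**Figure D5:**
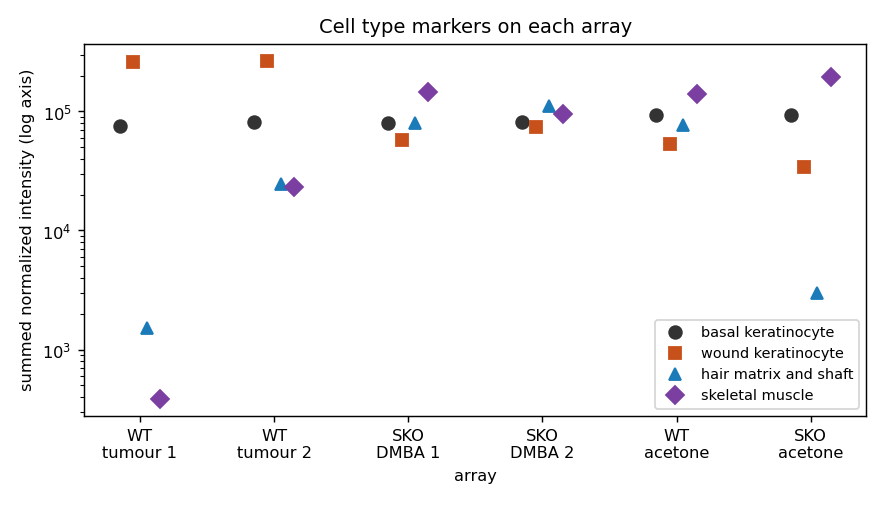
Sum of normalized linear intensities over the tested markers of 4 cell types (y axis, log scale) on each array (x axis); points of 1 array are set side by side. Wound keratinocyte sums are highest in both tumours, 260359 and 265910, though Krt17 within them is not. The hair and muscle sums are lowest in tumour 1, though Foxn1 and Dlx3 within the hair sum are not. Basal keratinocyte sums, whose single markers ran apart, lie between 74835.9 and 93975.5.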

How the data were processed

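Per the file headers, the deposited table gives, for 45281 probes on 6 arrays, an intensity on the linear scale with its detection p-value; the sources used here do not name its scanner software or any background step. Since the detection column as deposited rises with signal, 1 minus its value was taken as the p. The deposited matrix of log2 values matched the log2 of quantile-normalized intensities minus each probe's median (mean absolute difference at most 0.00125) and served as an alternative.

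The neqc function of limma 3.58.1 (R 4.3.3, offset 16) corrected background, applied quantile normalization and took log2. By the platform annotation, 34885 probes had 1 gene symbol, 18 had several and 10378 had none; 34807 were matched to RefSeq. A gene was its probe of highest mean intensity among those detected (p under 0.01) on at least 1 array, leaving 12021 genes. The 4 group means were fitted with lmFit and eBayes (2 residual and 2.44 prior degrees of freedom), and calls used a Benjamini-Hochberg adjusted p under 0.05. Each acetone group, with 1 array, took its spread from the DMBA groups, and precision is limited by having 6 arrays. The fit was run on simulated data with the same spread on all arrays for each gene. That does not cover the wider spread between the tumours seen here.

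Members and lists were chosen with earlier results of these data known. Values on every array are given for E2f1, Foxm1 and, in each role, the 2 genes with the largest absolute difference in WT tumour minus WT acetone skin; of other cell cycle lists, only among the 3 genes of largest moderated t over both genotypes. Replicates were numbered by accession, so numbers do not pair samples. Alternatives changed the background correction, scaling, detection filter, probe choice, offset, variance trend and arrays left out.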

Additional observations from a re-analysis of the deposited data

Results flagged for a closer look

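For 8 of 37 cell cycle genes, both tumours lay above WT acetone skin while both SKO DMBA arrays lay below SKO acetone skin. Of all genes, 9.96% had this order, and each genotype had only 1 acetone array to be measured from. Both tumours lay above WT acetone skin for 36 of 37 genes, against 39.4% of all genes. Both SKO DMBA arrays lay below SKO acetone skin for 8 of 37, against 38.4% of all genes, a smaller share than among all genes. The genes with both orders were Mcm4, Mcm5, Mcm7, Pcna and Ccne2 on the replication side and Plk1, Prc1 and Melk on the mitotic side. The difference of the responses passed limma's adjusted p of 0.05 in none of the 8 (adjusted p between 0.539 and 0.672). Without SKO DMBA skin 2 the count was 29, against 16.4% of all genes, and without SKO DMBA skin 1 it was 9, against 13.4%.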

How the results depend on the processing

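The replication and mitotic medians stayed positive in WT tumour minus WT acetone skin and WT tumour minus SKO DMBA skin under every alternative run, while several means and counts moved. With equal array medians the mean replication difference was 0.48 from WT acetone skin and 0.49 from SKO DMBA skin, against 0.81 and 0.77 with quantile normalization, and 6 of 37 genes were higher than WT acetone skin at an unadjusted p under 0.05 (5.21% of all genes). Without normalization between arrays the replication means were 0.36 and 0.40, the mitotic mean from WT acetone skin was 0.55 against 0.98, and 4 and 11 genes were higher at that threshold (4.28% and 6.31% of all genes), against 15 and 19. Keeping undetected probes put replication minus mitotic at 0.0657 in WT tumour minus WT acetone skin and -0.00506 in WT tumour minus SKO DMBA skin. Genes called by limma in the second comparison numbered 7 without background correction, 7 with the authors' deposited matrix, 137 with detection on all 6 arrays, which tests fewer genes, and 9 with the mean of all detected probes, against 0, and 0 cell cycle genes were among them under these 4 settings. The cause was not tested. In WT tumour minus WT acetone skin, single genes turned negative without normalization between arrays: Ccne2 at -0.0295, Cdc6 at -0.0199, Cenpf at -0.13, Kif11 at -0.0721, Mcm6 at -0.11, Pcna at -0.0992 and Ttk at -0.00301. Cenpf was at -0.0175 with equal medians. In WT tumour minus SKO DMBA skin, equal medians gave -0.0522 for Cenpf, -0.20 for Mcm6 and -0.15 for Ttk, and no normalization gave -0.15 for Cenpf, -0.29 for Mcm6, -0.0383 for Pcna and -0.24 for Ttk. With 1 array of a group of 2 left out at a time, genes called ranged from 0 to 2830 in WT tumour minus WT acetone skin, 0 to 191 in SKO DMBA skin minus SKO acetone skin, 0 to 3722 in WT tumour minus SKO DMBA skin, 0 to 1230 in the difference of the responses and 0 to 2364 in DMBA minus acetone. Cell cycle genes called ranged from 0 to 10 in the first of these, 0 to 16 in the third, 0 to 2 in the fourth and 0 to 3 in the fifth, with 0 throughout in the second. The upper ends came without tumour 2, and the 191 without either tumour; the lone array was then assumed to vary like the SKO DMBA pair. Cell cycle genes higher at an unadjusted p under 0.05 ranged from 8 to 17 in WT tumour minus WT acetone skin and from 6 to 26 in WT tumour minus SKO DMBA skin. The share of all genes higher at that threshold moved as well, from 4.46% to 17.2% in the former and from 4.13% to 20.3% in the latter. Both shares were highest without tumour 2, so the counts cannot be read without them. Cell cycle genes with opposite order in the genotypes ranged from 8 to 29, where the share of all genes ranged from 12% to 16.4%. In WT tumour minus SKO DMBA skin, Plk1 ranged from -0.49 to 2.79, Cenpf from -0.0310 to 0.47, Mcm6 from -0.0826 to 0.20, Tyms from -0.32 to 1.04 and Ttk from -0.0545 to 0.51. No paired analysis was possible because the labels give no replicate numbers shared between groups. The lone acetone arrays could not be left out, and a block for the slide was not run because the files name no slide. Probes not detected on some arrays, such as those of Ccne1 and Plk1, give limits there.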
